A study of Homo sapiens with 12 samples.

Results

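The integrated stress response was followed here through 10 genes, ATF4, ATF3, DDIT3 (CHOP), PPP1R15A (GADD34), ASNS, CHAC1, CEBPB, ATF5, VLDLR and EIF2AK3 (PERK), taken by name out of 19775 genes that the platform annotation gives a probe set of their own. They are read by 18 of the 54675 probe sets, each annotated to its gene alone. Tests were limited to probe sets brighter than the overall median signal, 136.5, in 3 or more of the arrays, which holds for 15 of the 18. The 3 left out were ASNS 241082_at, with signals of 2.69 to 61.4 over the 12 arrays, ATF5 217389_s_at, with 12.8 to 50.5, and EIF2AK3 241463_at, with 4.43 to 54.9. Of the 15, CHAC1 219270_at was above the median on 7 arrays, ATF5 230938_x_at on 6, ATF3 1554420_at on 8 and VLDLR 209822_s_at on 10, and the other 11 on all 12.

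The 4 treatment groups hold 3 arrays each. Cells received taurolidine at 250 µmol/l, taurolidine at that dose together with TRAIL at 50 ng/ml, TRAIL at 50 ng/ml alone, or no agent, for 6 h, and every group has 1 array from each of 3 established human sarcoma lines grown in the same medium. By their labels, VA-ES-BJ is an epithelioid sarcoma line, SK-LMS-1 a leiomyosarcoma line and A-204 a rhabdomyosarcoma line. Taurolidine is a taurine derivative used as an antimicrobial agent, and TRAIL is a death receptor ligand. The lines serve as replicates, so n = 3 for each treatment, and there is no repeat within a line. The labels do not say that the arrays come from separate experiments, so a p-value reflects only how these arrays vary.

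Cells enter the integrated stress response when a kinase such as PERK, at the endoplasmic reticulum membrane, phosphorylates the translation initiation factor eIF2 on its alpha subunit. General protein synthesis then slows, while the messenger RNA of the transcription factor ATF4 is translated more efficiently, and ATF4 with its partners induces genes of amino acid supply, further transcription factors such as CHOP and ATF3, and PPP1R15A, whose product brings a phosphatase to eIF2 and so reverses the first step. Because ATF4 is regulated largely in translation, its messenger RNA reports only a portion of its activity.

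Promoter windows of the members are shown to place the motifs that these factors bind. RefSeq windows (GRCh38.p14), each running from 250 bases before to 50 bases after an annotated gene start, were available for all 10 genes as 17 windows. They were searched on both strands for TGATGNAA, the C/EBP-ATF composite element that ATF4 binds with a C/EBP partner, for TGACGTCA, the cyclic AMP response element bound by ATF and CREB proteins, and for TGANTCA, a loose form of the AP-1 element. N stood for any base, so TGANTCA also takes in sequences that are not strict AP-1 elements. The composite element occurred in windows of 3 of the 10 genes (ATF3, ASNS and CHAC1), the cyclic AMP element in 1 (PPP1R15A) and the loose AP-1 form in 2 (DDIT3 and ATF5), and no matches overlapped. Among all 35116 windows of this length, 3.62% held the composite element, 1.85% the cyclic AMP element and 7.71% the loose AP-1 form. These are shares of single windows, while the gene counts take all windows of a gene together, so they cannot be set side by side directly. ATF3 and ASNS each have another window, at a different annotated start (chr1:212614768-212615067 and chr7:97872116-97872415), which held no match. The gene start named below is that of the window shown. In the windows below, written 5′ to 3′ on the strand of the gene, capitals mark the match, which begins 191 bases before the gene start in ATF3 (chr1:212565157-212565456, plus strand), 68 bases before it in ASNS (chr7:97872359-97872658, minus strand), 209 bases before it in CHAC1 (chr15:40953221-40953520, plus strand, where the element lies on the opposite strand) and 58 bases before it in PPP1R15A (chr19:48872171-48872470, plus strand).
ATF3: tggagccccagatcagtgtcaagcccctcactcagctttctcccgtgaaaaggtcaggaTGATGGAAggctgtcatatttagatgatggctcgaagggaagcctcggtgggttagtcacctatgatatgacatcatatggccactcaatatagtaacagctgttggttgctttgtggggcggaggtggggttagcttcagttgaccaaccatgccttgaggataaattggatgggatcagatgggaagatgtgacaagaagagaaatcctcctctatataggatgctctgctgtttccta
ASNS: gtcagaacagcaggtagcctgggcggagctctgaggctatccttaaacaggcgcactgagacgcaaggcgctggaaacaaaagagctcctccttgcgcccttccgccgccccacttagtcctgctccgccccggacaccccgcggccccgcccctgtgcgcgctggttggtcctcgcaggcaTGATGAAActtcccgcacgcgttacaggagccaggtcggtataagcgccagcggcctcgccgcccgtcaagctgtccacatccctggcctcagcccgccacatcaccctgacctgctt
CHAC1: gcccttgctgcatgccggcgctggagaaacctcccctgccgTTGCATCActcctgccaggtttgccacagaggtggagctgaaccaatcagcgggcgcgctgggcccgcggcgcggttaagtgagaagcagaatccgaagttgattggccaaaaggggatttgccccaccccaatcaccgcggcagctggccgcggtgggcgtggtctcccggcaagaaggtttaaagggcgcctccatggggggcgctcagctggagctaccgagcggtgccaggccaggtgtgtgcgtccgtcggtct
PPP1R15A: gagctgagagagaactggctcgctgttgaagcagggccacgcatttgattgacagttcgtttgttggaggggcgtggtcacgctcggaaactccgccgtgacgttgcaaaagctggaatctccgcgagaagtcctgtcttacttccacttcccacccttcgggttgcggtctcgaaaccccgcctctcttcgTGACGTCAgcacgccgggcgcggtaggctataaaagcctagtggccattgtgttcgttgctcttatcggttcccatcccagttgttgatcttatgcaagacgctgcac
A match describes the letters of the window and does not show that a factor was bound in these cells.

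Values are MAS5 signals on a linear scale, whose trimmed mean was 1000.1 to 1000.2 on every array, and array medians lay between 123.2 and 155.4. In untreated cells the smooth muscle markers summed to 61445 in SK-LMS-1, against 18558 for A-204 and 34791 for VA-ES-BJ, with 7, 5 and 5 of 8 above the table median. Skeletal muscle markers above the median numbered 2 of 10 in A-204, with MYOD1 at 28.6 and MYOG at 10.2, and 3 of 10 in each other line. Their summed signal was nonetheless highest in A-204, at 6495, against 2679 for SK-LMS-1 and 4904 for VA-ES-BJ. TNNT1 made up most of it, at 5677, 1787 and 4133 in that order of lines. VA-ES-BJ had the highest summed epithelial marker signal, 52171, against 19094 for A-204 and 12969.8 for SK-LMS-1. Of 8 epithelial markers, however, 7 were above the median in A-204, against 5 in VA-ES-BJ and 4 in SK-LMS-1. KRT8, KRT18 and KRT19 were highest in VA-ES-BJ, KRT7 in SK-LMS-1, and EPCAM, CDH1, MUC1 and DSP in A-204. VA-ES-BJ also had the lowest signal of SMARCB1, a chromatin remodelling gene typically lost in epithelioid sarcoma, at 152, against 1235 for A-204 and 3530 for SK-LMS-1. Leukocyte markers stood above the median in 1 of 4 cases in each line, and endothelial markers in 1 of 5. The spiked poly-A control RNAs were brighter with taurolidine than without it by 0.59 on the log2 scale (SD 0.11, 3 lines), and values after scaling to them are given beside the results below that they bear on most.

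Taurolidine alone was followed by higher signals of the transcription factors ATF4 and ATF3, of PPP1R15A and, more weakly, of ASNS, and by a lower signal of EIF2AK3, which encodes PERK itself. Of the 15 probe sets tested, 7 were higher, which compares with 3.92% of all 32421 probe sets called higher, and 1 was lower, which compares with 9.65% called lower. These 7 stood for 4 genes, since ATF3 has 3 probe sets and PPP1R15A 2. DDIT3, CHAC1, CEBPB, ATF5 and VLDLR did not pass the threshold, an adjusted p of 0.05. Scaled to the poly-A spikes instead, 6 probe sets were higher and 5 lower, beside 0.376% of all probe sets called higher and 54.2% called lower, and CHAC1, VLDLR and 2 ATF5 probe sets were then among the lower ones. Taken as genes at their brightest probe set, 4 of the 10 members rose and 1 fell (median 0.27), beside 5.43% and 9.74% of all genes. With that scaling 3 were higher and 4 lower (median -0.36), beside 0.26% and 54.1% of all genes. Over the 15 probe sets the median change was 0.45 on the log2 scale, and over all tested probe sets it was -0.06.

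**Figure D1:**
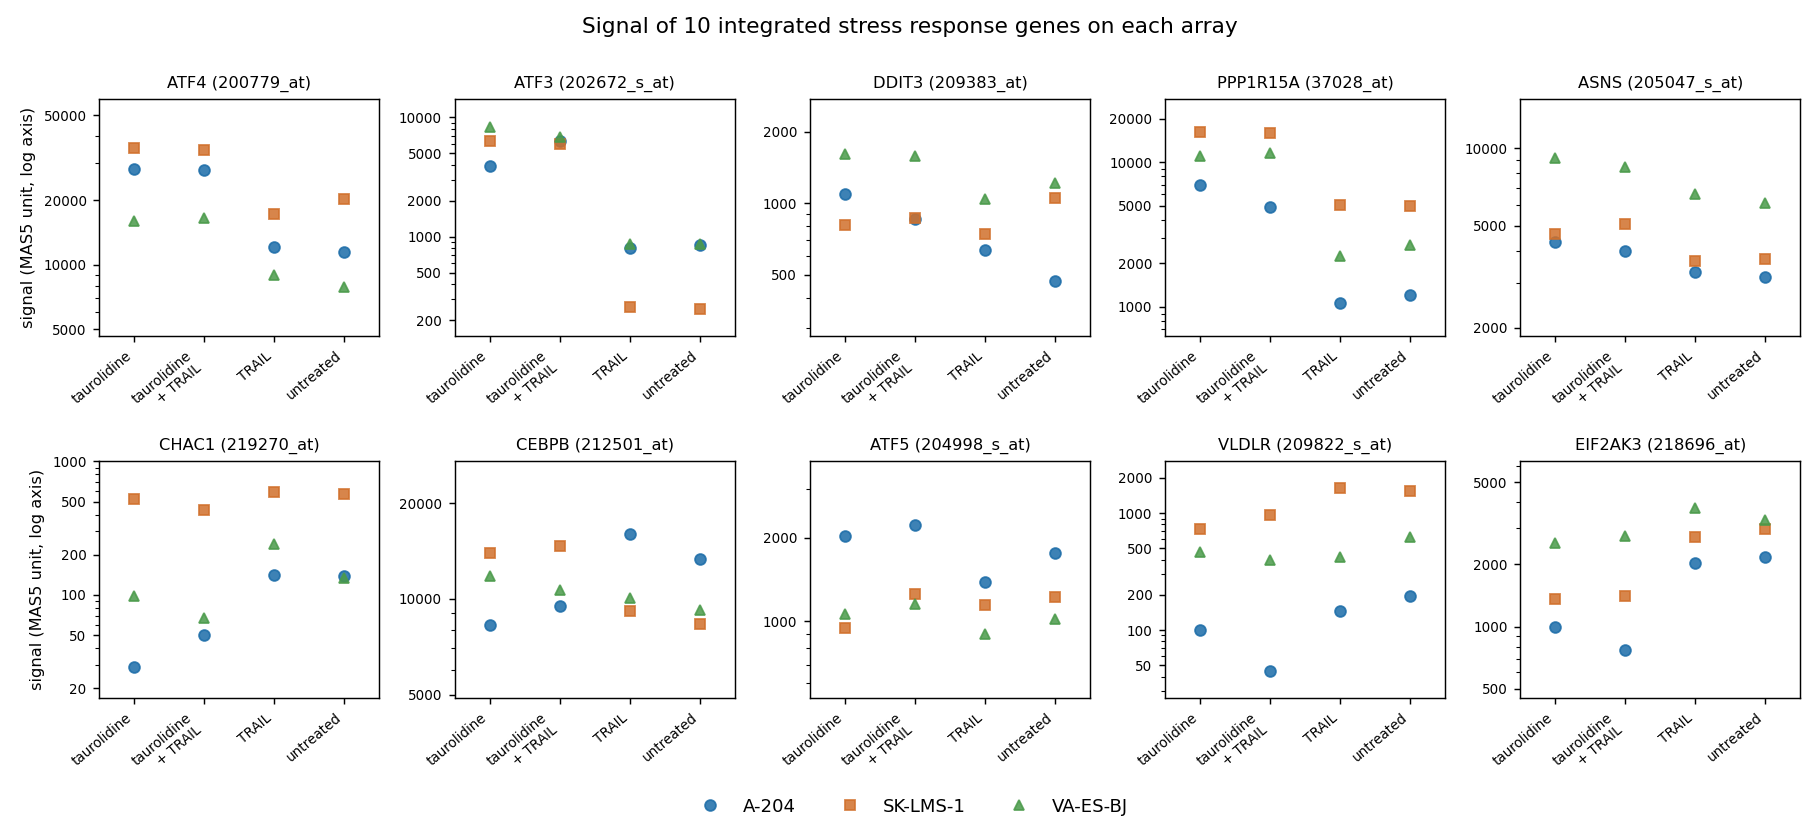
Signal of 10 integrated stress response genes on each of the 12 arrays, in the MAS5 unit on a log axis, for the brightest probe set of each gene, where points are single arrays of A-204 (circles), SK-LMS-1 (squares) and VA-ES-BJ (triangles), and positions on the x axis are taurolidine, taurolidine plus TRAIL, TRAIL and untreated. ATF3 and PPP1R15A were higher on the taurolidine arrays in every line, while CEBPB was lower on them in A-204 and higher in SK-LMS-1.

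ATF4, the central transcription factor of the response, rose, and was higher in each of the 3 lines. In A-204 its signal was 28054 with taurolidine, 27857 with both agents and 12120.2 with TRAIL, against 11479 in untreated cells. SK-LMS-1 gave 35086 with taurolidine, 34532 with both agents and 17240 with TRAIL, against 20221 untreated, and VA-ES-BJ gave 16114, 16569.5 and 8973, against 7879. Within each line the arrays with taurolidine lay above those without it, but over lines the groups overlapped, because untreated SK-LMS-1 had a higher ATF4 signal than VA-ES-BJ with taurolidine. The change with taurolidine was 1.04 ± 0.13 on the log2 scale (SE, n = 3 lines, 2.05-fold, adjusted p = 0.0042), with 1.29 for A-204, 0.79 for SK-LMS-1 and 1.03 for VA-ES-BJ. After scaling to the poly-A spikes, which brought the median of all probe sets to -0.67, ATF4 was 0.40 higher (adjusted p = 0.031). Without A-204 its change was 0.91 (adjusted p = 0.088), without SK-LMS-1 1.16 (adjusted p = 0.053) and with VA-ES-BJ left out 1.04 (adjusted p = 0.082). Each array measures a whole culture, so a change in every cell and a larger change in fewer cells cannot be told apart.

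ATF3, a stress-induced factor that can act as a repressor, changed by more than any other member. Its brightest probe set, 202672_s_at, had signals of 3922 with taurolidine, 6344 with both agents and 809.9 with TRAIL in A-204, against 845 untreated. In SK-LMS-1 these were 6311, 6016 and 259, against 249.5 untreated, and in VA-ES-BJ 8347, 6804 and 861, against 873 untreated. The lowest value with taurolidine was above the highest without it, so the groups did not overlap. Taurolidine alone changed this probe set by 3.34 ± 0.45 on the log2 scale, 10.2-fold (adjusted p = 0.0048). The fold was 4.59 for A-204, 24.2 for SK-LMS-1 and 9.44 for VA-ES-BJ, and SK-LMS-1 started from the lowest untreated signal. The other ATF3 probe sets rose less, 1554980_a_at by 2.31 ± 0.36 (adjusted p = 0.0078) and 1554420_at by 1.63 ± 0.39 (adjusted p = 0.032). For 1554420_at the change in VA-ES-BJ was 0.47, with signals of 388 under taurolidine, against 277 untreated. Without A-204 the change of 202672_s_at was 3.92 (adjusted p = 0.061), without SK-LMS-1 2.72 (adjusted p = 0.040) and with VA-ES-BJ left out 3.40 (adjusted p = 0.092). ATF3 1554980_a_at passed in none of the fits that left out a line, with changes of 2.65, 1.86 and 2.41, and 1554420_at passed without VA-ES-BJ (2.20, adjusted p = 0.049) but not without A-204 (1.42) or SK-LMS-1 (1.25).

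PPP1R15A, the stress-inducible phosphatase subunit that ends the response, rose at both of its probe sets. At 37028_at the signals in A-204 were 6965 with taurolidine, 4918 with both agents and 1066 with TRAIL, against 1200.5 untreated. SK-LMS-1 gave 16149, 16022 and 5063, against 4964, and VA-ES-BJ 10998, 11668 and 2257, against 2691. Taurolidine alone changed this probe set by 2.08 ± 0.20 on the log2 scale, 4.24-fold (adjusted p = 0.0015), with no overlap between taurolidine and untreated arrays. The second probe set, 202014_at, changed by 2.73 ± 0.26, 6.61-fold (adjusted p = 0.0015), and its signals reached 15192 with taurolidine in SK-LMS-1, against 2951 untreated. The fold at 202014_at was 10.1 for A-204, 5.13 for SK-LMS-1 and 5.56 for VA-ES-BJ. Both probe sets passed without SK-LMS-1, at 2.28 (adjusted p = 0.035) and 2.91 (adjusted p = 0.039), but not without A-204 (1.86 and 2.42, adjusted p = 0.061 for each) or VA-ES-BJ (2.11 and 2.85, adjusted p = 0.063 and 0.053).

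ASNS, asparagine synthetase and a classical amino acid response target of ATF4, rose by a smaller amount. Signals at 205047_s_at were 4314 with taurolidine, 3995 with both agents and 3303 with TRAIL in A-204, against 3154 untreated. In SK-LMS-1 they were 4631, 5069 and 3653, against 3694, and in VA-ES-BJ 9145, 8438 and 6641, against 6124. Within each line both arrays with taurolidine were above both arrays without it, although the groups overlapped over lines. The change with taurolidine alone was 0.45 ± 0.10 on the log2 scale, 1.37-fold (adjusted p = 0.028), and after scaling to the poly-A spikes it was -0.18 (adjusted p = 0.29), so its direction depends on that scaling. ASNS did not pass without A-204 (0.45, adjusted p = 0.20), SK-LMS-1 (0.51, adjusted p = 0.14) or VA-ES-BJ (0.39, adjusted p = 0.20).

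DDIT3 encodes CHOP, the factor most often tied to cell death in this response, and its change with taurolidine did not pass. Its signals in A-204 were 1089.7 with taurolidine, 859.9 with both agents and 635 with TRAIL, against 469 untreated. SK-LMS-1 gave 809.7, 871 and 742, against 1055 untreated, and VA-ES-BJ 1616, 1580.3 and 1046, against 1219.6. DDIT3 was thus above its untreated value with taurolidine in A-204 and VA-ES-BJ and below it in SK-LMS-1. The change was 0.41 ± 0.25 on the log2 scale (95% interval -0.18 to 0.99, adjusted p = 0.32), and it was -0.22 after scaling to the poly-A spikes (adjusted p = 0.45). Without A-204 the DDIT3 change was 0.013 (adjusted p = 0.98), and without SK-LMS-1 it was 0.80 (adjusted p = 0.15).

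CEBPB, a C/EBP factor that partners with ATF4, differed in sign between lines. In A-204 its signal was 8298 with taurolidine and 9488 with both agents, against 15978 with TRAIL and 13369 untreated. In SK-LMS-1 it was 13892 with taurolidine and 14632 with both agents, against 9146 with TRAIL and 8359 untreated. VA-ES-BJ had 11829.5 with taurolidine and 10703 with both agents, against 10093 with TRAIL and 9203 untreated. The mean change with taurolidine alone was 0.14 ± 0.31 on the log2 scale (95% interval -0.59 to 0.86, adjusted p = 0.81), and it was -0.50 after scaling to the poly-A spikes (adjusted p = 0.25). It was 0.55 without A-204, -0.16 without SK-LMS-1 and 0.022 with VA-ES-BJ left out. ATF5, another bZIP factor whose translation is raised in the response, gave -0.03 ± 0.16 at 204998_s_at and -0.09 ± 0.20 at 204999_s_at (adjusted p = 0.92 and 0.81). These ATF5 probe sets passed as lower after scaling to the poly-A spikes, at -0.66 (adjusted p = 0.0083) and -0.70 (adjusted p = 0.019). Under that scaling the median of all probe sets was -0.67 and 54.2% were called lower, so ATF5 lay close to the array-wide shift. The dim ATF5 probe set 230938_x_at gave 1.21 ± 0.35 (adjusted p = 0.059), higher in 3 of 3 lines, with signals of 98.9 to 336 with taurolidine, against 41.8 to 179 untreated.

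EIF2AK3, the gene of the kinase PERK, fell with taurolidine. In A-204 the signal at 218696_at was 996 with taurolidine, 767 with both agents and 2026 with TRAIL, against 2176 untreated. SK-LMS-1 gave 1365, 1404 and 2724, against 2967, and VA-ES-BJ 2533, 2748 and 3733, against 3293. Each line had lower values on its arrays with taurolidine, and the groups overlapped over lines through VA-ES-BJ. The change was -0.87 ± 0.22 on the log2 scale, 1.83-fold lower (adjusted p = 0.038), and -1.50 after scaling to the poly-A spikes. EIF2AK3 did not pass without A-204 (-0.75), SK-LMS-1 (-0.75) or VA-ES-BJ (-1.12), with adjusted p of 0.21, 0.25 and 0.074.

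CHAC1, which degrades glutathione and is induced by ATF4 in many cell types, was below its untreated value with taurolidine in 3 of 3 lines. Signals were 28.7 with taurolidine, 50.1 with both agents and 140.0 with TRAIL in A-204, against 139 untreated. In SK-LMS-1 they were 526, 431 and 595, against 567, and in VA-ES-BJ 98.3, 67.5 and 241, against 133. The change was -0.80 ± 0.35 on the log2 scale (95% interval -1.62 to 0.01, adjusted p = 0.17). CHAC1 was at -0.25 without A-204 (adjusted p = 0.70), and after scaling to the poly-A spikes it passed as lower, at -1.35 (adjusted p = 0.013). Under that scaling 54.2% of all probe sets were called lower, with a median of -0.67. VLDLR, the very low density lipoprotein receptor and a reported ATF4 target, gave -0.79 ± 0.31 (adjusted p = 0.13), and passed as lower after that scaling, at -1.39 (adjusted p = 0.0093). Its signals with taurolidine were 100.2 for A-204, 734 for SK-LMS-1 and 465 for VA-ES-BJ, against 196, 1561 and 619.5 untreated. CHAC1 and VLDLR passed as lower when all arrays with taurolidine were set against all without it, as given below.

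**Figure D2:**
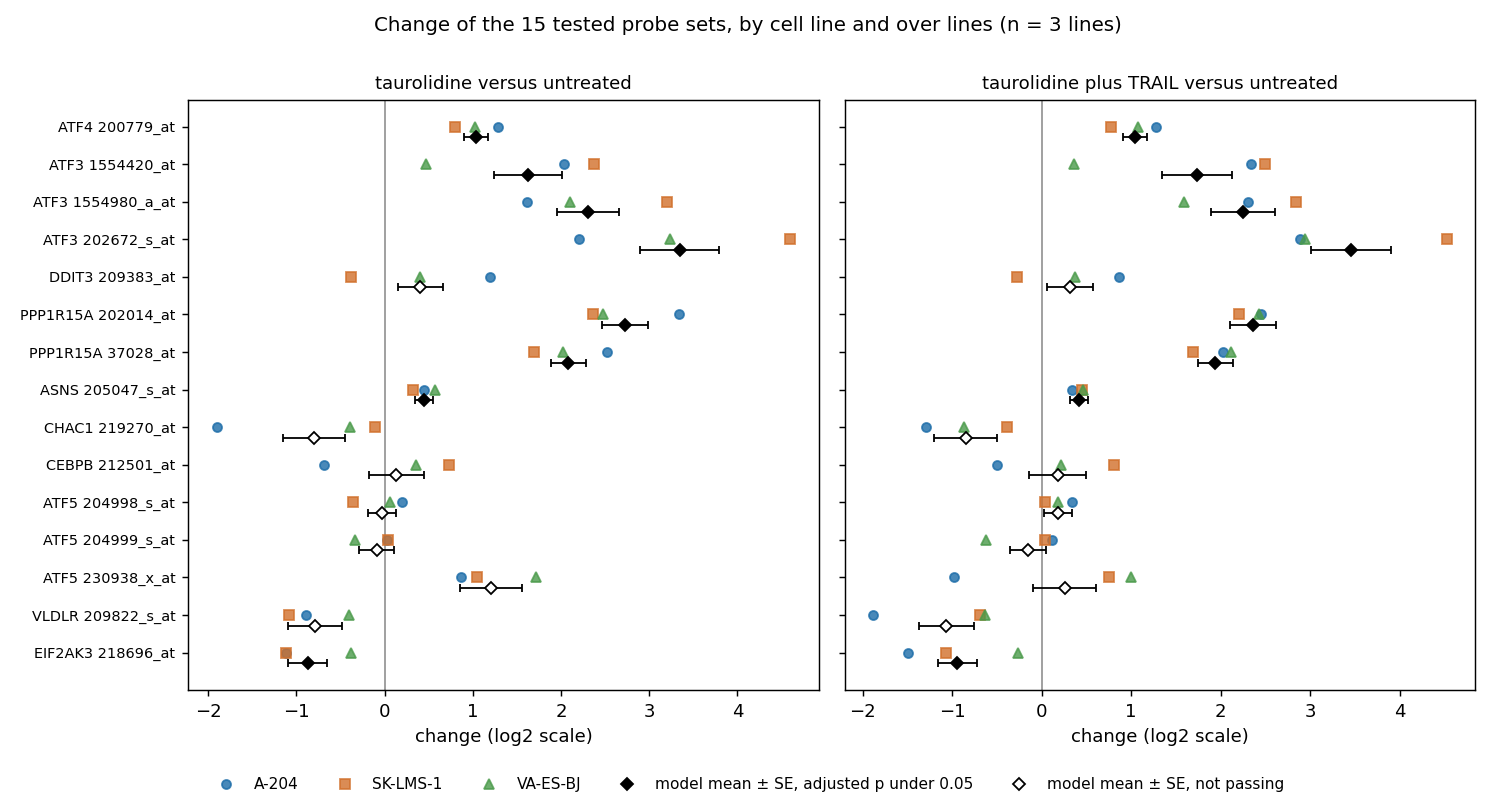
Change of the 15 tested probe sets on the log2 scale with taurolidine (left) and with taurolidine plus TRAIL (right), each against untreated cells, where coloured symbols are the 3 lines and diamonds the mean over lines ± SE, filled where the adjusted p was under 0.05. The 3 ATF3 and 2 PPP1R15A probe sets lie furthest to the right, ATF4 near 1.04 and EIF2AK3 to the left of 0, and ASNS, at 0.45 and 0.42, falls below 0 after scaling to the poly-A spikes.

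With both agents, 7 of the 15 probe sets were higher than in untreated cells, which compares with 3.67% of all tested, and 1 was lower, which compares with 9.1%. This comparison and that of taurolidine alone use the same untreated arrays. ATF3 202672_s_at was 3.45 ± 0.45 higher on the log2 scale with both agents (adjusted p = 0.0043), PPP1R15A 37028_at 1.94 ± 0.20 (adjusted p = 0.0019) and ATF4 1.04 ± 0.13 (adjusted p = 0.0041). ASNS was 0.42 ± 0.10 higher (adjusted p = 0.036), and -0.034 after scaling to the poly-A spikes. EIF2AK3 was -0.94 ± 0.22 (adjusted p = 0.031), VLDLR -1.07 ± 0.31 (adjusted p = 0.058), CHAC1 -0.85 ± 0.35 (adjusted p = 0.15) and DDIT3 0.32 ± 0.25 (adjusted p = 0.45). With scaling to the poly-A spikes 6 member probe sets were higher and 3 lower, beside 0.568% and 34% of all probe sets, with VLDLR at -1.48 (adjusted p = 0.012), CHAC1 at -1.25 (adjusted p = 0.027) and DDIT3 at -0.13 (adjusted p = 0.70).

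The number of member probe sets called rested on all 3 lines. For taurolidine against untreated cells, 0 of the 15 probe sets passed without A-204, 3 without SK-LMS-1 and 1 with VA-ES-BJ left out, and 2 passed without the cell line in the model. For both agents against untreated cells these counts were 0, 4, 0 and 2, and over all probe sets 4141 became 0, 806, 0 and 203. Among all 32421 probe sets, 4402 passed with taurolidine, against 0 without A-204, 478 without SK-LMS-1 and 58 with VA-ES-BJ left out. By the same limma test, 6428 had an unadjusted p under 0.05 without A-204. Of the 4402, 28.9% were higher, and this share was 45.2% after quantile normalisation, 50.4% with equal array medians and 0.689% after scaling to the poly-A spikes.

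Setting all 6 arrays with taurolidine against the 6 without it asks what taurolidine did whether or not TRAIL was present. Each line gives an array with TRAIL and an array without it to either side, so there are still only 3 lines. The model counts these arrays as separate and has no term for a line's own response to taurolidine. Its SE is therefore smaller (0.09 for ATF4, against 0.13 for taurolidine alone) and may understate the spread between lines. On this contrast 7 of the 15 member probe sets were higher, which compares with 11% of all probe sets, and 3 were lower, which compares with 17.4%. At the brightest probe set of each gene, 4 of the 10 genes rose and 3 fell, beside 14.4% and 16.8% of all genes. The lower ones were EIF2AK3 (-0.90 ± 0.16, adjusted p = 0.0048), CHAC1 (-0.97 ± 0.25, adjusted p = 0.023) and VLDLR (-0.78 ± 0.22, adjusted p = 0.030). ATF3 202672_s_at was 3.41 ± 0.32 higher (adjusted p = 0.00040), PPP1R15A 37028_at 2.08 ± 0.14 (adjusted p = 0.00012), ATF4 1.03 ± 0.09 (adjusted p = 0.00037) and ASNS 0.41 ± 0.07 (adjusted p = 0.0056), and ASNS alone of these turned, to -0.19, after scaling to the poly-A spikes. DDIT3 stood at 0.41 ± 0.18 (95% interval -0.00 to 0.83, adjusted p = 0.13), and at -0.18 after that scaling. Under it 6 member probe sets were higher and 5 lower, beside 0.706% and 65.8% of all probe sets, the added lower ones being ATF5 204998_s_at (-0.41) and 204999_s_at (-0.54). The count of 10 became 5 without A-204, 6 without SK-LMS-1 and 7 with VA-ES-BJ left out. Over all probe sets 9208 became 2476, 3914 and 3799 in the same fits. CHAC1 passed without SK-LMS-1 (-1.32, adjusted p = 0.041) but not without A-204 (-0.66) or VA-ES-BJ (-0.94), VLDLR in none of the fits that left out a line, and EIF2AK3 without VA-ES-BJ (-1.14, adjusted p = 0.018) but not without A-204 (-0.72) or SK-LMS-1 (-0.83).

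TRAIL alone changed none of the members at the threshold. No probe set of the 32421 passed in this comparison (0%), by limma with or without a trend in the spread. An unadjusted p under 0.05 was found for 1393, of which 1 was a member probe set. It was ATF5 230938_x_at (1.09 ± 0.35, unadjusted p = 0.015, adjusted p = 0.999), the dim probe set above. ATF4 differed from untreated cells by 0.01 ± 0.13 (95% interval -0.30 to 0.32), ATF3 202672_s_at by -0.01 ± 0.45 (95% interval -1.05 to 1.02), DDIT3 by -0.10 ± 0.25 (95% interval -0.68 to 0.49) and PPP1R15A 37028_at by -0.13 ± 0.20 (95% interval -0.59 to 0.32).

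TRAIL added to taurolidine was compared with taurolidine alone, and 0 of the 32421 probe sets (0%) passed, with 1056 at an unadjusted p under 0.05, again including 1 member probe set. ATF3 202672_s_at differed by 0.11 ± 0.45 (95% interval -0.92 to 1.14), with 0.69 for A-204, -0.07 for SK-LMS-1 and -0.29 for VA-ES-BJ. PPP1R15A 202014_at was -0.37 ± 0.26, with -0.90 for A-204, -0.15 for SK-LMS-1 and -0.05 for VA-ES-BJ. Taurolidine added to TRAIL, against TRAIL alone, gave 6 member probe sets higher and 1 lower, beside 3.33% and 7.88% of all probe sets. At the brightest probe set of each gene, 3 of the 10 genes rose and 1 fell, beside 4.04% and 8.23% of all genes. The 6 higher probe sets were those of ATF4, ATF3 and PPP1R15A, and the lower one was of EIF2AK3 (-0.93 ± 0.22, adjusted p = 0.036). ASNS, at 0.36 ± 0.10, had an adjusted p of 0.059 and was at -0.19 after scaling to the poly-A spikes. That scaling gave 5 member probe sets higher and 4 lower, beside 0.577% and 42.4% of all probe sets. The count of 7 was 0 without A-204, 3 without SK-LMS-1 and 0 with VA-ES-BJ left out. Over all probe sets 3634 became 0, 595 and 64 in the same fits.

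The series title asks about synergy, which for expression was read as a departure of the combination from the sum of the separate changes on the log2 scale. No probe set of the 32421 passed (0%), with 1375 at an unadjusted p under 0.05 and 1 of them a member probe set. For ATF4 the departure was -0.01 ± 0.19, for ATF3 202672_s_at 0.12 ± 0.64 and for DDIT3 0.01 ± 0.36. The member probe set at an unadjusted p under 0.05 was ATF5 230938_x_at, with -2.05 ± 0.50 (unadjusted p = 0.0035, adjusted p = 0.9996), and its departure was negative in 3 of 3 lines. Its signals were 336 with taurolidine, 84.6 with both agents and 288 with TRAIL in A-204, against 179 untreated, and the brighter ATF5 probe sets gave departures of 0.42 ± 0.22 and 0.24 ± 0.29.

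The lines were then compared for their response to taurolidine, with the arrays with and without TRAIL standing in as replicates. Over all probe sets 81 of 32421 differed between lines (0.25%), and of the 15 member probe sets 0 did, with 3 at an unadjusted p under 0.05. CEBPB came nearest, with changes of -0.72 for A-204, 0.70 for SK-LMS-1 and 0.22 for VA-ES-BJ (F = 32.4, adjusted p = 0.064). It passed under 4 of the 9 other settings, among them a constant of 64 (adjusted p = 0.044) and a stricter filter (0.012). The others were 1 probe set a gene (0.033) and a trend in the spread (0.0023). Calls in general also rose in each of these settings. From 81 they became 155 with the constant, 752 of 16637 with the stricter filter and 850 with the trend. Passing there is thus not specific to the members. ATF3 202672_s_at changed by 2.58 for A-204, 4.54 for SK-LMS-1 and 3.10 for VA-ES-BJ (F = 20.4, adjusted p = 0.10), and passed with the stricter filter (0.026) and the trend (0.0092). EIF2AK3 gave -1.25, -1.03 and -0.41 in the same order of lines (adjusted p = 0.23), CHAC1 -1.60, -0.28 and -1.03 (adjusted p = 0.37) and DDIT3 0.81, -0.07 and 0.50 (adjusted p = 0.38). ATF4 was the most even of the genes drawn here, with 1.24, 0.90 and 0.96 (adjusted p = 0.55).

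**Figure D3:**
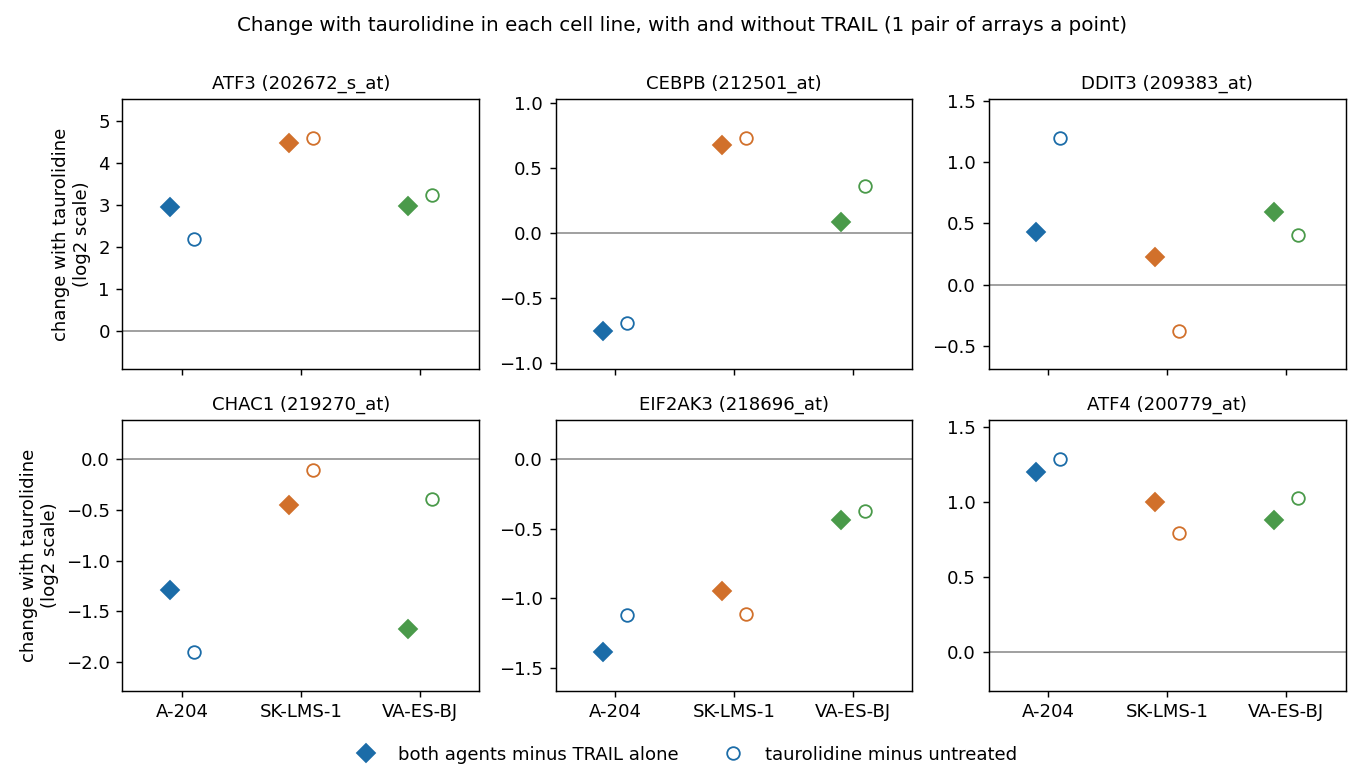
Change with taurolidine in each line on the log2 scale for 6 genes, as both agents minus TRAIL alone (filled diamonds) and as taurolidine minus untreated (open circles), 1 pair of arrays a point. CEBPB lies below 0 in A-204 and above it in SK-LMS-1 on both pairs, and ATF3 is highest in SK-LMS-1.

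Genes around the members were described by lists, at the brightest probe set of each gene, beside all 14221 genes, of which 5.43% rose and 9.74% fell with taurolidine. Of 8 other eIF2 alpha kinase genes and their activators 0 passed in either direction, and EIF2AK2 (PKR), the kinase activated by double-stranded RNA and named after its value was seen, had -0.32 ± 0.11 (adjusted p = 0.10). Of 14 genes of eIF2, its exchange factor eIF2B and its phosphatase, 1 rose and 2 fell. EIF2B3, a subunit of eIF2B, rose by 0.74 ± 0.16 (adjusted p = 0.023). PPP1R15B, the constitutive counterpart of PPP1R15A, fell by 1.69 on the log2 scale (SE 0.19, adjusted p = 0.0025), with mean signals of 1121 ± 264 with taurolidine and 3588 ± 391 untreated (SD, n = 3 each). NCK1, an adaptor that recruits phosphatase to eIF2, fell by 1.13 (SE 0.22, adjusted p = 0.017). The inducible and the constitutive phosphatase subunits thus had opposite signs in 3 of 3 lines. After scaling to the poly-A spikes, which left 0.26% of all 14221 genes higher and 54.1% lower, 0 genes of this list were higher and 7 lower, and of the kinases and activators 0 were higher and 6 lower.

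Among 21 measured ATF4 targets of amino acid supply 3 rose and 1 fell, with a list median of 0.16 against -0.00 over all genes. PHGDH, the entry enzyme of serine synthesis, rose by 0.72 ± 0.11 (adjusted p = 0.0083), SHMT2, of mitochondrial folate metabolism, by 0.54 ± 0.15 (adjusted p = 0.049), and the amino acid transporter SLC38A2 fell by 0.83 (SE 0.18, adjusted p = 0.023). After scaling to the poly-A spikes SHMT2 was at -0.10. The third riser, PYCR1 of proline synthesis, was named after its value was seen (0.47 ± 0.13, adjusted p = 0.048). Of 11 aminoacyl-tRNA synthetases, which ATF4 also induces, none passed, and their changes lay between 0.04 and 0.44 with a median of 0.25. On the poly-A spike scale 12 of the 21 supply genes and 6 of the 11 synthetases were lower and 0 higher, beside 54.1% of all genes lower.

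The 21 measured stress targets of ATF4 and CHOP split, with 4 higher and 2 lower. GADD45B and GADD45A, growth arrest genes induced by several stress pathways, rose by 2.43 ± 0.25 (adjusted p = 0.0020) and 1.60 ± 0.19 (adjusted p = 0.0031). SESN2, a sestrin that restrains mTORC1, fell by 1.50 (SE 0.28, adjusted p = 0.014). The remaining ones, named after their values were seen, were EIF4EBP1 (0.56 ± 0.10) and MAP1LC3B (0.46 ± 0.13), which rose, and the pseudokinase TRIB3, a frequently used readout of ATF4 and CHOP, which fell by 0.85 (SE 0.17, adjusted p = 0.018). The list median was 0.08. In the ATF6 and IRE1 branches of the unfolded protein response 1 of 21 genes passed, the chaperone DNAJB9 at 0.89 ± 0.13 (adjusted p = 0.0065), while HSPA5, the main chaperone of the endoplasmic reticulum and named after its value was seen, had 0.15 ± 0.14 (adjusted p = 0.53). On the spike scale 2 of the 21 stress targets were higher and 10 lower, and of the 21 genes of the unfolded protein response branches 0 were higher and 15 lower, beside 0.26% of all genes higher and 54.1% lower.

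Of 16 measured ATF, CREB and C/EBP relatives 2 rose and 2 fell. NFIL3 fell by 1.40 (SE 0.16, adjusted p = 0.0027) and CEBPG, a C/EBP partner of ATF4, by 0.80 (SE 0.17, adjusted p = 0.020). ATF7 rose by 0.49 ± 0.12 (adjusted p = 0.037) and was at -0.14 after scaling to the poly-A spikes. The other riser, named after its value was seen, was CREB3 (0.42 ± 0.11, adjusted p = 0.043). Of 9 measured AP-1 genes, whose products pair with ATF3, 3 rose and 1 fell, with a list median of 1.20. FOS rose by 5.24 ± 0.76 (adjusted p = 0.0063), FOSB by 4.85 ± 0.71 (adjusted p = 0.0066) and MAFF by 1.63 ± 0.30 (adjusted p = 0.014), and FOSL2, named after its value was seen, fell by 0.59 (SE 0.11, adjusted p = 0.015). With the spike scaling 3 of the 9 AP-1 genes were higher and 2 lower, and of the 16 ATF, CREB and C/EBP relatives 0 were higher and 10 lower, beside the same shares of all genes. Without A-204 or without VA-ES-BJ, 0 genes of any of these 8 lists passed, and without SK-LMS-1 3 did, GADD45B (2.22), FOS (4.13) and PPP1R15B (-1.82).

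**Figure D4:**
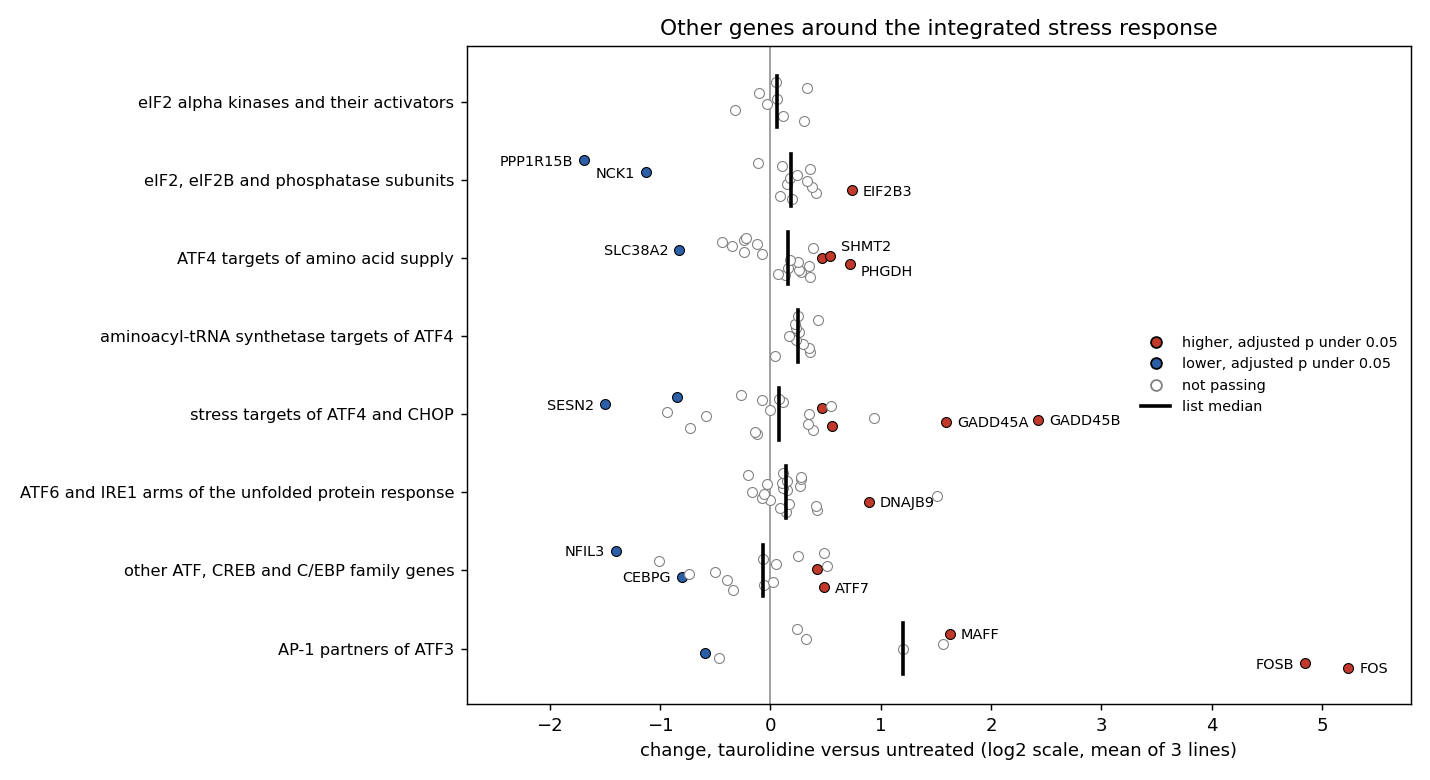
Change with taurolidine against untreated cells, on the log2 scale as the mean of 3 lines, for single genes of 8 lists around the integrated stress response, where filled points passed the threshold (red higher, blue lower), open points did not, and bars are list medians. FOS, FOSB and GADD45B lie furthest right and PPP1R15B furthest left. Of the genes labelled by name, SHMT2 and ATF7 change sign after scaling to the poly-A spikes, and the unlabelled genes were not followed singly.

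Profiles like those of ATF3 and DDIT3 over the 12 arrays were sought after subtracting each line's mean, as a description in which all points share the treatments and the lines. Nearest to ATF3 202672_s_at were SLC25A4 (r = 0.989), RSRP1 (0.988), FOS (0.987), PTGS2 (0.984) and NR4A2 (0.983). The sizes of change differed among these, with SLC25A4 at 0.31 and FOS at 5.24 on the log2 scale. Nearest to DDIT3 were KRTAP4-2 (r = 0.945), ERFE (0.944), ABCC3 (0.937), DLEU1 (0.934) and TYK2 (0.928).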

How the data were processed

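RNA of the 12 cultures was labelled as biotinylated cRNA by the 3' IVT protocol, per the labels, and read on 1 Affymetrix array each. The deposited values are intensity signals per probe set on a linear scale, which the authors made with MAS5, per the submitters' processing notes; the target of its scaling, and its version, were not given in the sources used here. The number of arrays limits the precision. Of 54675 probe sets, 41097 carry 1 gene symbol, 1801 several and 11777 none, and 41043 of the first were matched by Entrez number to current symbols.

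Signals were taken to log2 after adding 11.8, the 10th percentile of the table. The 62 control probe sets and those not above the table median on at least 3 arrays were left out, which kept 32421. limma 3.58.1 in R 4.3.3 fitted treatment and cell line over all 12 arrays (6 residual degrees of freedom), with Benjamini-Hochberg adjustment over all 32421 and a threshold of 0.05. Differences between lines were tested with an F test of the line by taurolidine terms (5 residual degrees of freedom). Fits were tested on simulated data.

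The cell line pairs the arrays, because the replicate of each treatment is the same line. Departures of arrays from their treatment mean correlated at 0.785 to 0.869 within lines and at -0.538 to -0.350 between them, so the line is a block in the model.

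All probe sets of the 10 genes are named. From each other list up to 3 genes are named, those with the largest change with taurolidine among those that passed, and the 5 nearest profiles of ATF3 and of DDIT3 were taken by correlation. PYCR1, EIF4EBP1, MAP1LC3B, TRIB3, CREB3, FOSL2, EIF2AK2 and HSPA5 fall outside this rule and were chosen after their values were seen. The members and lists were chosen with earlier results of these data known. Alternatives changed the constant, the filter, the scaling (quantile, equal medians, 27 poly-A spike probe sets), the probe sets used per gene, the block, the arrays fitted and the moderation, and left out each line.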

Additional observations from a re-analysis of the deposited data

Results flagged for a closer look

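The change of CEBPB with taurolidine differed in sign between lines, at -0.72 for A-204, 0.70 for SK-LMS-1 and 0.22 for VA-ES-BJ on the log2 scale, so that the highest and lowest lines were 1.42 apart. It is listed here because the difference between lines was tested directly, by limma's F test (F = 32.4, unadjusted p = 0.00034). After adjustment over 32421 probe sets the p was 0.064, with 0.0023 to 0.20 over the alternatives, so the difference does not pass at 0.05 as reported. The separate pairs of arrays gave -0.75 with TRAIL present and -0.69 without it in A-204, and 0.68 and 0.73 in SK-LMS-1. A-204 also had the highest untreated CEBPB signal, 13369, against 8359 for SK-LMS-1 and 9203 for VA-ES-BJ, and the part of this starting level in the difference was not tested.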

How the results depend on the processing

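Of the 15 member probe sets, 8 passed for taurolidine against untreated cells, and this became 5 with no filter, 5 with 1 probe set a gene, where fewer were tested, and 0 with only the 6 arrays compared. For both agents against untreated cells 8 became 5 with no filter and 0 with only 6 arrays, and for both agents against TRAIL 7 became 0 with only 6 arrays. With no replicate block, that is without the pairing by cell line, the counts were 2, 2 and 2 in these comparisons and 4 in place of 10 for arrays with against without taurolidine. Over all probe sets the calls fell too, from 4402, 4141, 3634 and 9208 to 221, 203, 182 and 1114. Leaving out a line gave 0 to 3, 0 to 4, 0 to 3 and 5 to 7. For the difference between lines 0 became 1 with a constant of 64 and 2 with the filter at the 75th percentile. It became 1 with 1 probe set a gene and 2 with a trend in the spread. Calls in general also rose in each of these settings. From 81 they became 155 with the constant, 752 of 16637 with that filter and 850 with the trend. The cause of these moves was not tested beyond the smaller number of arrays or probe sets.

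Scaling to the poly-A spikes changed the sign of 7 values that passed the threshold before or after it, and of 27 further member values that passed in neither case, DDIT3 and CEBPB with taurolidine among them. Genes named outside the rule, with the risers PYCR1, EIF4EBP1, MAP1LC3B and CREB3 among them, were not followed singly under this scaling. Whether their signs hold under it is therefore not given. With taurolidine against untreated cells ASNS was -0.18, SHMT2 -0.10 and ATF7 -0.14, and with both agents ASNS was -0.034. On arrays with against without taurolidine ASNS was -0.19, and ATF5 was -0.41 at 204998_s_at and -0.54 at 204999_s_at, both past the threshold under that scaling. The median of all probe sets was -0.58 there. That scaling moved the median of all probe sets from -0.06 to -0.67 for taurolidine, and which scaling is nearer to RNA per cell was not tested. Among all probe sets, calls with taurolidine were 4402, against 1638 with no filter, 17700 after spike scaling, 221 with no replicate block and 0 with only 6 arrays (7598 at an unadjusted p under 0.05). For arrays with against without taurolidine, 38.7% of calls were higher, against 51.1% after quantile normalisation and 1.06% after spike scaling.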
